A study of Mus musculus with 16 samples.

Results

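The genes described here are *Spp1*, *Ly86*, *Gpr34*, *Cd180*, *Crybb1*, *Cryba4* and *Ms4a6d*, 7 of the 17567 genes that the probes of the array could be matched to. They were selected on the shift between *Mef2c*-het and wild-type (WT) mice at postnatal day (P) 1, and several of them are known from neonatal microglia. The array holds 9 probes for them, with 2 each for *Gpr34* and *Ms4a6d* and 1 for each of the others, and all were kept. RNA came from whole hippocampus and was hybridised to Illumina MouseRef-8 v2 arrays, where many beads with the same probe give 1 value. There were 16 mice with 1 array each, 4 WT and 4 *Mef2c*-het at P1, and 4 WT and 4 *Mef2c*-het at P30. The *Mef2c*-het mice, which the labels call KO, are heterozygous for a germline allele of *Mef2c* that lacks exon 2, on the C57BL/6J background, so that 1 copy is disrupted in all cells and not in microglia alone. The WT mice are littermates, and no mouse is described as treated. The study's methods describe the P30 RNA, and how the P1 tissue was obtained is not given in the sources used here.

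Microglia are the resident macrophages of the brain. They enter it from the yolk sac before birth, and around birth many are ameboid, divide and take up dying cells and myelin debris before they settle into the ramified adult form. Newborn microglia are known for a gene programme of their own, in which *Spp1* and *Igf1* are high, while genes of the surveying adult cell such as *P2ry12* and *Selplg* come later. MEF2C is a transcription factor of neurons and muscle that is also active in microglia. *Spp1* encodes osteopontin, a secreted glycoprotein that binds integrins and CD44. *Ly86* encodes MD-1, a secreted partner of CD180, which is itself a surface receptor related to the toll-like receptors. *Gpr34* encodes a lysophosphatidylserine receptor of microglia, *Crybb1* and *Cryba4* encode beta crystallins, first known from the lens, and *Ms4a6d* encodes a membrane protein of the MS4A family found in myeloid cells.

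Between 12638 and 14150 of the 25697 probes had a detection p under 0.05 on an array, which compares the signal with negative control beads. A median of 36 to 39 beads stood behind a probe on an array, and 21 to 58 behind a single value of the 9 probes, with a bead standard error of 2.02% to 6.60% of the intensity. Pearson's r of log2 intensities over all probes was 0.983 to 0.996 between P1 arrays and 0.984 to 0.997 between P30 arrays. Within each age the arrays formed a larger and a smaller cluster, and the smaller held 1 WT and 1 *Mef2c*-het array at P1 (both replicate 8) and 2 WT (replicates 6 and 7) and 1 *Mef2c*-het array (replicate 7) at P30. Sex is not in the labels. Read from *Xist* and Y-linked genes, all 8 P30 mice were male, while at P1 the WT group held 3 females and 1 male (replicate 8) and the *Mef2c*-het group 2 females and 2 males (replicates 2 and 8). Of 26 genes listed as microglia markers, *Itgam*, *Ptprc* and *Slc2a5* were among those above background on no array, and 16 to 19 were above background on all arrays of a group. The summed intensity of choroid plexus markers, whose tissue lies against the hippocampus, ranged from 6904 to 34053 in WT and from 2557 to 27178 in *Mef2c*-het mice at P1, and its part in the results was not tested. Of 8 markers of hippocampal neurons, *Calb1* was above background on no array and *Neurod6* on none at P30. *Mef2c* itself is no check of the labels, since where its probes lie relative to exon 2 is not given in the sources used here. One of its 3 probes was too dim to test. The others differed between *Mef2c*-het and WT by -0.29 and -0.24 on the log2 scale at P30 (two-sided exact permutation p = 0.2 and 0.3714) and by 0.07 and -0.01 at P1 (exact permutation p = 0.7143 and 0.9714).

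At P1 the probes of 6 of the 7 genes read lower in *Mef2c*-het than in WT hippocampus, and those of *Ms4a6d* read higher. *Spp1* had the largest difference, 3.38-fold, and *Ly86* the next at 1.71-fold, while the others lay between 1.12-fold and 1.37-fold. This contrast selected the genes, so its values are a description and no test is given for them. For 7 probes all *Mef2c*-het arrays lay below all WT arrays, against 0.73% of the 13566 probes tested, and for 1 probe all lay above, against 0.56%. Over all probes 1.62% had an unadjusted limma p under 0.05 and 0% an adjusted p under 0.05. Levels are log2 intensities after quantile normalization of the 8 arrays of an age, and a level of one probe is not comparable with that of another.

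*Spp1* was the secreted member with the widest range. On the WT arrays of replicates 1, 4, 5 and 8 its log2 level was 10.40, 10.96, 10.55 and 9.42, and on the *Mef2c*-het arrays of replicates 1, 2, 4 and 8 it was 9.23, 8.51, 8.62 and 7.94. The highest *Mef2c*-het array was just below the lowest WT array. The WT arrays averaged 10.33 ± 0.65 (SD, n = 4) and the *Mef2c*-het arrays 8.58 ± 0.53 (SD, n = 4), a log2 fold change of -1.76 (SE 0.33), the lowest of the 13566. In each genotype replicate 8, male and in the smaller cluster, was the lowest array. The difference was -1.71 between the females (3 WT and 2 *Mef2c*-het), -1.19 between the males (1 and 2), -1.85 within the larger cluster (3 and 3) and -1.48 within the smaller (1 and 1).

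The sequence before the start of *Spp1* is shown because this gene moved most. It is a window of 300 bases across the RefSeq gene start (GRCm38.p6, chr5:104434861-104435160, plus strand), the first of 2 start windows that RefSeq gives. Capitals mark TATAAA and GAGGAAGT, the latter a form of the purine-rich motif bound by PU.1, the factor that myeloid cells depend on.
Spp1: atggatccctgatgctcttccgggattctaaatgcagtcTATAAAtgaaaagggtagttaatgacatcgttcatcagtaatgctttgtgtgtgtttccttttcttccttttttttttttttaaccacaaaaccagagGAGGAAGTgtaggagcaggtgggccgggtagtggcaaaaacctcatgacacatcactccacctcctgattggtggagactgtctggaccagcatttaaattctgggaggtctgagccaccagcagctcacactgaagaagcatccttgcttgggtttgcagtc
TATAAA began at position -211 and GAGGAAGT at position -113 relative to the start. Searched on both strands of the 32851 mouse windows of this length, TATAAA was in 13.6%, GAGGAAGT in 3.2% and the shorter GAGGAA, which lies inside it, in 28.3%. TGANTCA, the AP-1 motif (7.81%), and the MEF2 consensus (3.19%) were not matched in the windows of *Spp1*, *Ly86*, *Cd180*, *Crybb1* or *Cryba4*, the 5 genes with an entry. A match is a run of letters and not a measured site.

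MD-1 and CD180 act as a pair, since the secreted MD-1 binds the extracellular part of CD180 and carries it to the surface. For *Ly86* the WT arrays read 9.19, 9.67, 9.21 and 9.25 and the *Mef2c*-het arrays 8.71, 8.40, 8.64 and 8.48. The groups were far apart for their spread, with a log2 fold change of -0.77 (SE 0.12), ranked 4 from the lowest of all probes. It was between -0.81 and -0.68 within each sex and each cluster. *Cd180* read 7.50, 7.47, 7.49 and 7.53 in WT and 7.32, 7.14, 7.25 and 7.23 in *Mef2c*-het mice, a log2 fold change of -0.26 (SE 0.063). Its detection p was under 0.05 on all 4 WT arrays but on 1 *Mef2c*-het array only, so that the probe entered the test through the WT group and its difference is close to background. The window at the start of *Ly86* (GRCm38.p6, chr13:37345095-37345394, plus strand) held none of the motifs searched and so has no capitals. It is shown beside that of *Spp1* because these genes had the largest differences.
Ly86: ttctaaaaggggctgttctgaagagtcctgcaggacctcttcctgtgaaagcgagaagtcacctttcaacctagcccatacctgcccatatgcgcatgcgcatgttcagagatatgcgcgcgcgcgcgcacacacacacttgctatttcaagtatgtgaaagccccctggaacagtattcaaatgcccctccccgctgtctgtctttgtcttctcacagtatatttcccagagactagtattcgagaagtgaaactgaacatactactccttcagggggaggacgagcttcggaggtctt

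*Gpr34* was read by 2 probes, which gave like differences. Probe ILMN_1237817 read 7.98, 8.07, 7.85 and 7.81 in WT and 7.80, 7.32, 7.66 and 7.48 in *Mef2c*-het mice, a log2 fold change of -0.36 (SE 0.11). Probe ILMN_2742840 read 7.94, 8.13, 7.90 and 7.97 in WT and 7.75, 7.59, 7.67 and 7.59 in *Mef2c*-het mice, a log2 fold change of -0.34 (SE 0.075). The groups did not overlap on either probe, though on the first they nearly touched. Within sexes and clusters the difference was between -0.41 and -0.24 on the first probe and between -0.38 and -0.28 on the second. *Gpr82*, a related orphan receptor whose gene is a neighbour of *Gpr34*, was above background on no array.

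The crystallin genes *Crybb1* and *Cryba4* lie next to each other on chromosome 5 and are transcribed in opposite directions from their neighbouring starts. *Crybb1* read 7.54, 7.81, 7.64 and 8.11 in WT and 7.42, 7.30, 7.29 and 7.26 in *Mef2c*-het mice, a log2 fold change of -0.46 (SE 0.12). It was above background on all WT arrays and on 2 of the 4 *Mef2c*-het arrays. *Cryba4* read 8.43, 8.26, 8.26 and 8.59 in WT and 8.07, 7.79, 8.07 and 7.92 in *Mef2c*-het mice, a log2 fold change of -0.43 (SE 0.098), and was above background on all arrays. On both probes WT replicate 8, the array with the lowest *Spp1* among WT, was the highest of the WT arrays. The difference was accordingly wider in the smaller cluster (-0.85 for *Crybb1* and -0.68 for *Cryba4*) than in the larger (-0.33 and -0.34), and wider between males (-0.83 and -0.74) than between females (-0.31 and -0.25). Males and clusters share this single WT array, so that their parts cannot be told apart.

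The start windows of both genes are shown because the genes are neighbours that moved together (GRCm38.p6, *Crybb1* chr5:112255570-112255869, plus strand; *Cryba4* chr5:112252469-112252768, minus strand, printed along that strand). Capitals mark TATAAA.
Crybb1: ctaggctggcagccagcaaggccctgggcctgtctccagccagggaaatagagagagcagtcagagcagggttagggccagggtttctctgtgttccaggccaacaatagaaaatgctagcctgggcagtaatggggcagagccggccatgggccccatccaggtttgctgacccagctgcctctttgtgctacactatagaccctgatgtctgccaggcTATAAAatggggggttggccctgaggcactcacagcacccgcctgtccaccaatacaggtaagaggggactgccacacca
Cryba4: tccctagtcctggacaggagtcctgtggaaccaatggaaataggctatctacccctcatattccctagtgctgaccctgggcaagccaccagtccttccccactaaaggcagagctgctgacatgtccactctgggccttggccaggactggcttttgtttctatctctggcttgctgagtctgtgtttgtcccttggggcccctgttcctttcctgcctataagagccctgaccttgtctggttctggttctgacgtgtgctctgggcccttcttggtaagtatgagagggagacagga
TATAAA began at position -30 relative to the start of *Crybb1* and was not in the window of *Cryba4*.

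*Ms4a6d* was the member that read higher in *Mef2c*-het mice. Probe ILMN_1241695 read 7.83, 7.92, 7.92 and 8.05 in WT and 8.54, 8.21, 8.11 and 8.30 in *Mef2c*-het mice, with all *Mef2c*-het arrays above all WT arrays and a log2 fold change of 0.36 (SE 0.098), ranked 5 from the highest of all probes. Probe ILMN_2602352 read 7.30, 7.33, 7.15 and 7.12 in WT and 7.53, 7.34, 7.37 and 7.31 in *Mef2c*-het mice, a log2 fold change of 0.16 (SE 0.079) with overlapping groups. The second probe was dim, above background on 1 WT and 3 *Mef2c*-het arrays. *Ms4a6d* is a gene of macrophages and monocytes in general, so markers of those cells stand beside it. Of 6 tested markers of border macrophages, which live in the meninges and around vessels, 4 read higher and 2 lower at P1 (median 0.05), and of 5 tested markers of monocytes and neutrophils 4 read higher and 1 lower (median 0.10), with 0 of these past the adjusted threshold and 0 at an unadjusted p under 0.05 by limma. The summed intensity of the border macrophage list was 1535 to 1855 in WT and 1586 to 1898 in *Mef2c*-het mice, and that of the monocyte and neutrophil list 966 to 2084 and 1027 to 1724. *Ccr2*, which defines inflammatory monocytes, was above background on no array. *S100a8* of the same list was above background on all P1 arrays, with a log2 fold change of 0.32 (SE 0.51). A gene missing on this array need not be missing from the tissue, since the neuron markers *Snap25* and *Nefl* were above background on no array either. Whether such cells have a part in the *Ms4a6d* signal was not tested.

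**Figure D1:**
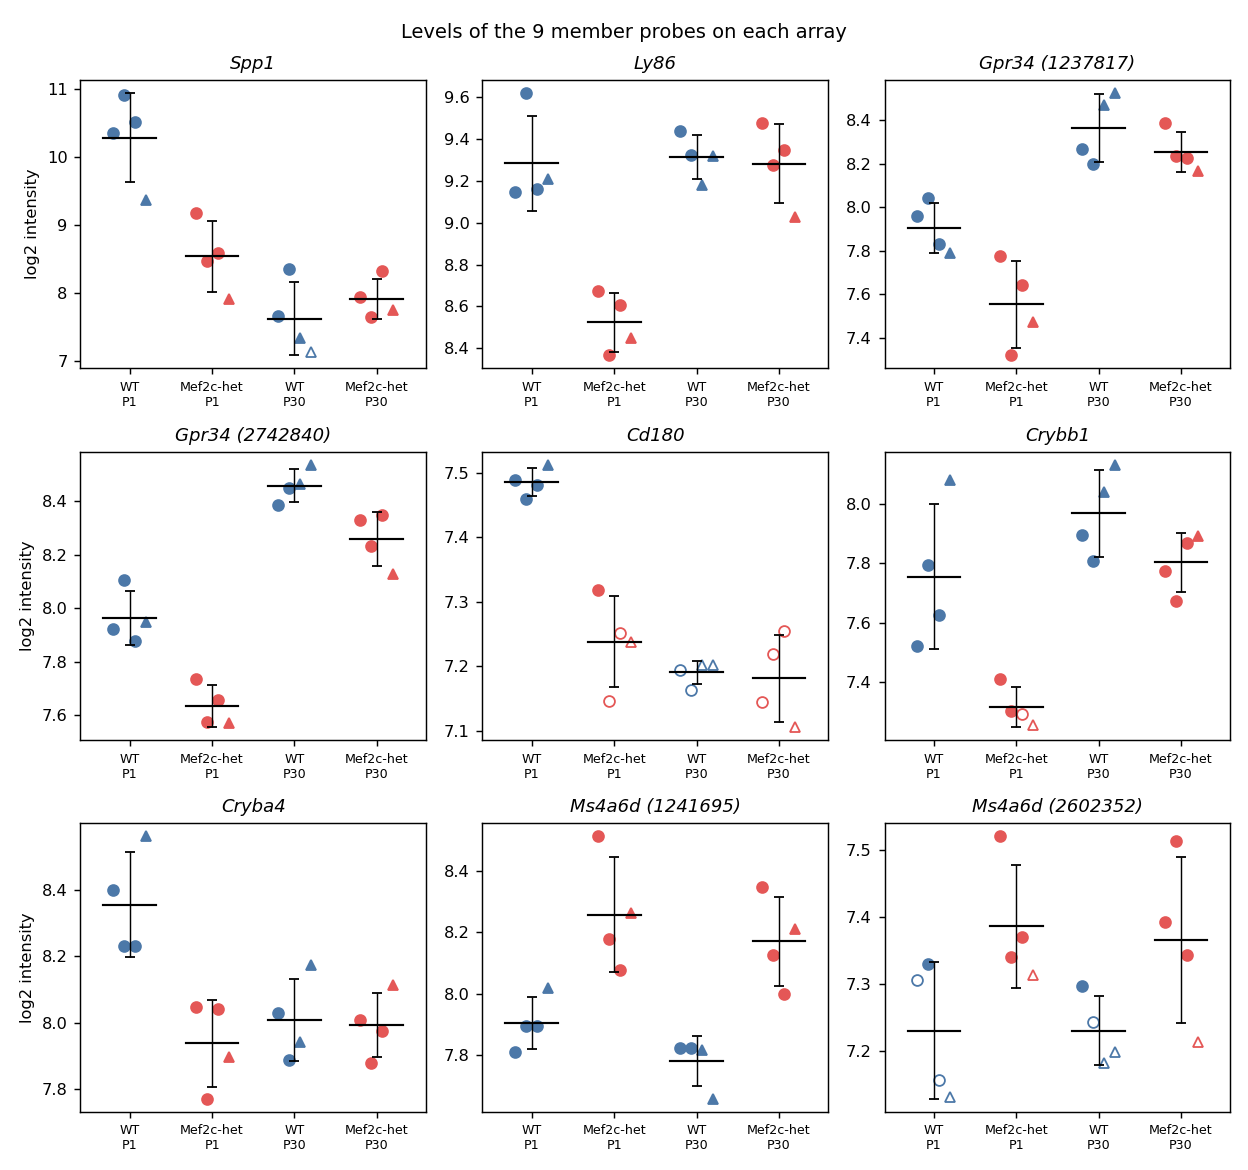
Each panel plots 1 probe, with the log2 intensity after quantile normalization of all 16 arrays on the y axis and the 4 groups on the x axis (4 arrays each); the horizontal line is the mean and the bar the SD. Circles are arrays of the larger and triangles of the smaller cluster, and open symbols have a detection p of 0.05 or more. At P1 the *Mef2c*-het arrays sit below the WT arrays for *Spp1*, *Ly86*, *Gpr34*, *Cd180*, *Crybb1* and *Cryba4*, and above them for *Ms4a6d* ILMN_1241695, while at P30 *Cd180* is open on every array.

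The sizes depended on how background was treated. With a normexp background correction the P1 log2 fold change was -2.21 for *Spp1*, -1.03 for *Ly86*, -0.88 and -0.73 for the *Gpr34* probes, -0.86 for *Cd180*, -1.26 for *Crybb1*, -0.74 for *Cryba4*, and 0.64 and 0.52 for the *Ms4a6d* probes, each in the same direction.

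Most markers of microglia as a whole also read lower at P1. Of 21 tested genes of the microglia list, which holds none of the 7 members, 17 read lower and 4 higher in *Mef2c*-het mice, with a median log2 fold change of -0.11 beside 0.0015 over all probes. By limma 0 were called after adjustment, and 5 lower genes (*Trem2*, *Tyrobp*, *Laptm5*, *Fcrls* and *Siglech*, named after their values were seen) passed 0.05 unadjusted. The list ran from -0.40 (*Trem2*) to 0.08 (*Sall1*). Among the 17 lower genes, *Selplg* (-0.09) was above background on 3 WT arrays and 1 *Mef2c*-het array at P1. It thus passed the filter mainly through the WT group, where it is higher, so its direction supports nothing. The members were picked for their shift in this contrast and the list was not, so their sizes are not compared. Its summed intensity was 9485 to 11131 with a median of 10284 in WT and 8609 to 10401 with a median of 8782 in *Mef2c*-het mice, and the ranges overlapped. In RNA of whole tissue, fewer cells of a type and less RNA per cell cannot be told apart. The list of early microglia holds genes of dividing, phagocytic or lipid-laden cells around birth. At P1, 12 of its 17 tested genes read lower and 5 higher (median -0.04). Values ranged from -0.53 (*Gpnmb*) to 0.13 (*Lpl*). Among the lower genes *Cd9* read -0.34 and *Igf1*, a growth factor, -0.21. Among the higher genes *Cd63* read 0.09 and *Clec7a* 0.08. *Gpnmb*, *Cd9* and *Cd68* passed 0.05 unadjusted by limma, and 0 genes were called after adjustment. At P30, 12 of 16 tested genes of this list read higher (median 0.06), with 0 called after adjustment and 2 at an unadjusted p under 0.05.

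At P30 the differences of *Ly86* and *Cryba4* were close to 0 for their error, *Spp1* read slightly above WT in *Mef2c*-het mice with overlapping groups, and 0 of the 8 member probes tested passed the adjusted threshold of limma, against 0.00746% of 13413 probes, which is 1 probe. This comparison took no part in selecting the genes. Of the 8 probes 2 had an unadjusted p under 0.05, against 2.36% of all probes, and the same 2 reached 0.0286, the smallest p that the exact permutation over 70 assignments of 4 and 4 arrays can give. They were *Gpr34* ILMN_2742840, lower in all *Mef2c*-het than in all WT arrays as were 1.18% of all probes, and *Ms4a6d* ILMN_1241695, higher in all *Mef2c*-het arrays as were 0.574%. The median log2 fold change of the 8 probes was -0.02, beside -0.01 over all probes.

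*Spp1* at P30 read 7.64, 8.33, 7.34 and 7.15 on the WT arrays of replicates 2, 3, 6 and 7 and 7.92, 7.62, 8.29 and 7.73 on the *Mef2c*-het arrays of replicates 3, 5, 6 and 7. The groups overlapped, with a log2 fold change of 0.28 (SE 0.24, limma adjusted p = 0.976, exact permutation p = 0.4286). The 2 lowest WT arrays were those of the smaller cluster, and the difference was -0.04 within the larger cluster (2 WT and 3 *Mef2c*-het) and 0.49 within the smaller (2 and 1). WT replicate 7 was not above background. The log2 fold change was 0.13 without that array and 0.52 without WT replicate 3.

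*Ly86* read 9.39, 9.28, 9.13 and 9.27 in WT and 9.43, 9.23, 9.30 and 8.99 in *Mef2c*-het mice. These levels overlapped fully, with a log2 fold change of -0.03 (SE 0.098, limma adjusted p = 0.983, exact permutation p = 0.8286). *Cd180* was above background on none of the 8 arrays and was not tested, and its log2 level was 7.12 to 7.26 on all of them.

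*Gpr34* ILMN_2742840 again had all *Mef2c*-het arrays below all WT arrays. It read 8.35, 8.42, 8.43 and 8.50 in WT and 8.29, 8.20, 8.31 and 8.10 in *Mef2c*-het mice, a log2 fold change of -0.20 (SE 0.068, limma adjusted p = 0.976, exact permutation p = 0.0286). By ILMN_1237817 the arrays read 8.23, 8.16, 8.43 and 8.49 in WT and 8.35, 8.20, 8.20 and 8.14 in *Mef2c*-het mice, and the groups overlapped (log2 fold change -0.11, SE 0.087, limma adjusted p = 0.976, exact permutation p = 0.2286). The probes thus did not give the same picture, and neither passed after adjustment. In the larger cluster the differences were -0.11 and 0.05, and in the smaller -0.37 and -0.32. For ILMN_1237817 the difference was -0.06 without WT replicate 7 and -0.17 without WT replicate 3.

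*Crybb1* read 7.87, 7.79, 8.01 and 8.10 in WT and 7.76, 7.66, 7.85 and 7.87 in *Mef2c*-het mice, with overlap and a log2 fold change of -0.16 (SE 0.084, limma adjusted p = 0.976, exact permutation p = 0.1143). *Cryba4* read 8.003, 7.87, 7.92 and 8.14 in WT and 7.98, 7.86, 7.95 and 8.08 in *Mef2c*-het mice, a log2 fold change of -0.01 (SE 0.078, limma adjusted p = 0.989, exact permutation p = 0.8857). Neither neighbour was called at this age, and the difference between them was not tested.

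*Ms4a6d* ILMN_1241695 read 7.80, 7.80, 7.80 and 7.64 in WT and 8.31, 8.10, 7.97 and 8.18 in *Mef2c*-het mice, with all *Mef2c*-het arrays above all WT arrays and a log2 fold change of 0.38 (SE 0.082, limma adjusted p = 0.976, exact permutation p = 0.0286). Within the larger and the smaller cluster the difference was 0.32 and 0.46. The dim probe ILMN_2602352 read 7.30, 7.25, 7.19 and 7.21 in WT and 7.39, 7.50, 7.34 and 7.22 in *Mef2c*-het mice, with overlap (log2 fold change 0.13, SE 0.071, limma adjusted p = 0.976, exact permutation p = 0.0857). The dim probe was above background on 1 WT and 3 *Mef2c*-het arrays at P30, as at P1. It thus passed the filter mainly through the group where it is higher, so its P30 test is not independent of the filter. On ILMN_1241695 the P30 difference was close in size to that at P1, and the difference between the ages was 0.04 (SE 0.13). On the dim probe the difference between the ages was -0.02 (SE 0.10). Both are given without a test because they contain the P1 contrast. The border macrophage list had 5 of 6 tested genes higher at P30 (median 0.11) with 0 past the adjusted threshold and 0 at an unadjusted p under 0.05 by limma, and its summed intensity was 1201 to 1331 in WT and 1275 to 1378 in *Mef2c*-het mice. With normexp the P30 log2 fold change was 0.81 for *Spp1*, -0.32 and -0.18 for the *Gpr34* probes, -0.34 for *Crybb1*, and 0.75 and 0.44 for the *Ms4a6d* probes, with 0 of the 8 probes called.

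**Figure D2:**
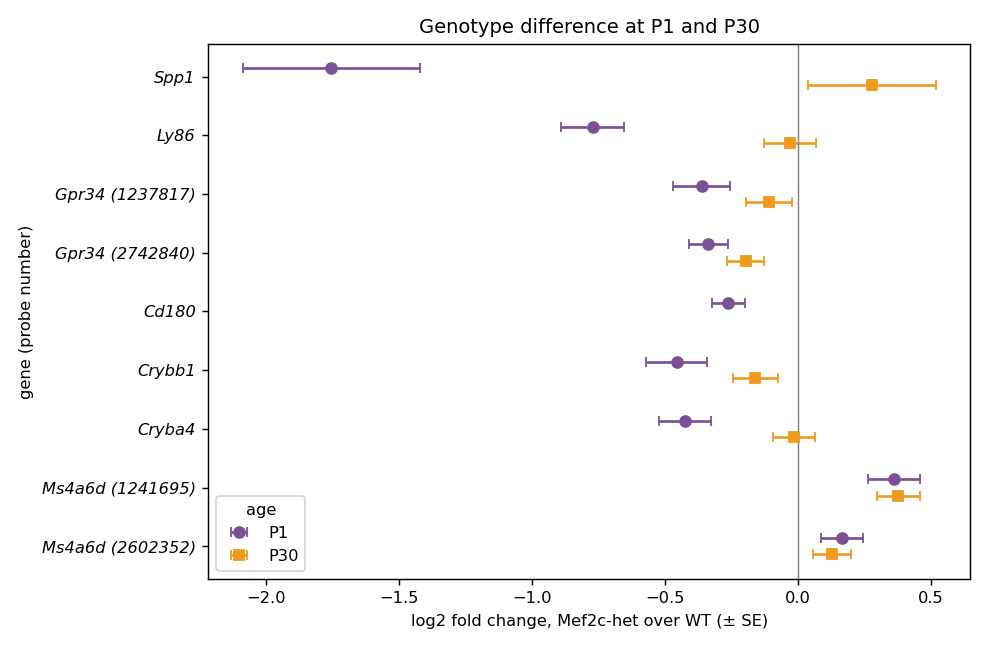
The x axis is the log2 fold change of *Mef2c*-het over WT with its SE (4 arrays per group), and each row is 1 member probe, with circles for P1 and squares for P30. The P1 values selected the genes. *Spp1* lies at -1.76 at P1 and 0.28 at P30, and *Ms4a6d* ILMN_1241695 at 0.36 and 0.38; *Cd180* has no P30 value because it was not above background.

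The microglia list as a whole did not read lower at P30. Of its 21 tested genes 17 read higher and 4 lower in *Mef2c*-het mice, with a median log2 fold change of 0.09. By limma 0 were called after adjustment, and 3 higher and 1 lower gene passed 0.05 unadjusted. Its summed intensity was 15873 to 17100 in WT and 16223 to 19017 in *Mef2c*-het mice. *Gpr34* and *Crybb1* read on the other side of 0 from most of this list, and no test of that contrast was made.

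**Figure D3:**
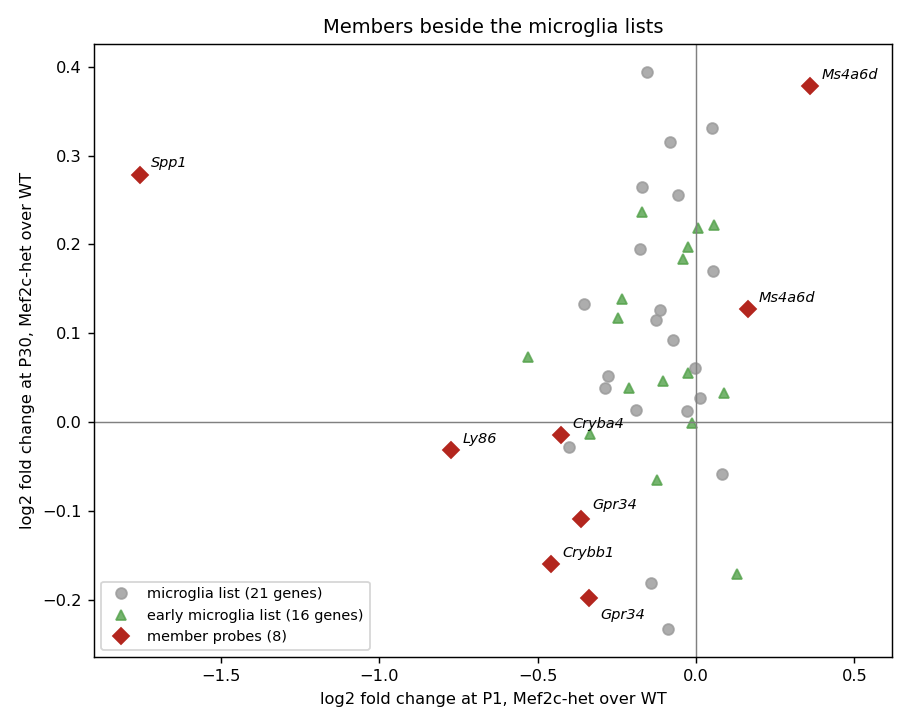
Log2 fold changes of *Mef2c*-het over WT at P1 (x axis) and at P30 (y axis) for genes of the microglia list (grey circles, 21 genes), the early microglia list (green triangles, 16 genes) and 8 member probes (red diamonds). A list gene is drawn by its brightest tested probe at each age, and for *Siglech* and *Aif1* this probe differs between the ages. The x axis is the contrast that selected the members and not the lists, so sizes along it are not compared. On it *Spp1* lies at -1.76 and the microglia genes between -0.40 and 0.08.

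With age the members went separate ways. Over the mean of both genotypes, *Spp1* fell from P1 to P30, and *Gpr34*, *Ly86* and *Crybb1* rose. *Cryba4* and *Ms4a6d* did not pass the test. This mean does not contain the genotype contrast at P1, but it holds the P1 arrays that selected the genes. For *Ly86* the log2 difference was 0.76 within *Mef2c*-het mice and 0.03 within WT, and for *Crybb1* 0.49 and 0.21. Within WT the ages overlapped for both genes, so their rise is not shown for WT mice. *Cd180* was above background on P1 arrays only. Of 9 probes, 4 were called higher, against 31.8% of the 14777 probes tested, and 2 lower, against 36.7%, one of them *Cd180*, whose call the filter fixed. The share of members called, 6 of 9 with *Cd180*, lies near that of all probes. The median log2 fold change was -0.01 for the 9 probes and -0.03 for all probes. These levels come from normalizing all 16 arrays together. All P30 mice were read as male and 5 of the 8 P1 mice as female.

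*Spp1* fell by 1.65 on the log2 scale (SE 0.23, 3.14-fold, limma adjusted p = 6.75e-06). The mean of the groups was 10.29 in WT and 8.54 in *Mef2c*-het mice at P1 and 7.62 and 7.91 at P30. In this order from the top, only the first step separated the arrays without overlap, and the *Mef2c*-het level at P1 overlapped with those at P30. Within WT the log2 difference was -2.67 (6.36-fold) and within *Mef2c*-het mice -0.63 (1.55-fold), given without a test since each contains a P1 group that selected the genes. With sex as a covariate the fall of the mean was 1.07 (limma adjusted p = 0.00108), and with normexp 2.59.

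The mean of *Ly86* over both genotypes rose by 0.39 (SE 0.080, limma adjusted p = 0.000344). The log2 difference was 0.76 within *Mef2c*-het mice and 0.03 within WT. The levels of WT at P1, WT at P30 and *Mef2c*-het at P30, with means of 9.28, 9.31 and 9.28, overlapped, and the *Mef2c*-het arrays at P1, with a mean of 8.52, lay below all others. *Cd180* was above background on 4 WT and 1 *Mef2c*-het array at P1 and on no P30 array. It therefore entered the fit through its P1 arrays alone, so that its call as lower (limma adjusted p = 0.000373) was fixed by the filter and supports nothing. The fold of P1 over P30 is a bound, at least 1.025-fold over both genotypes. The *Mef2c*-het level at P1 overlapped with both P30 groups.

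*Gpr34* rose in both genotypes, by 0.58 (SE 0.070, limma adjusted p = 1.38e-06) on ILMN_1237817 and by 0.56 (SE 0.047, limma adjusted p = 1.6e-08) on ILMN_2742840. All P30 arrays lay above all P1 arrays on both probes. The differences within WT were 0.46 and 0.50 and within *Mef2c*-het mice 0.70 and 0.63. On the second probe the order was *Mef2c*-het at P1 (7.63), WT at P1 (7.96), *Mef2c*-het at P30 (8.26) and WT at P30 (8.46), with no overlap between neighbours. On the first the order was the same and the P30 groups overlapped. With normexp the rises were 1.17 and 1.06.

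*Crybb1* rose by 0.35 (SE 0.073, limma adjusted p = 0.000438), by 0.21 in WT and 0.49 in *Mef2c*-het mice, and with normexp by 0.93. Its *Mef2c*-het level at P1, 7.32, was below that of the other groups, which overlapped with their neighbours in the order. *Cryba4* went the other way by -0.15 (SE 0.063, limma adjusted p = 0.0509) and was not called. Its WT level at P1, 8.35, was above all others, with a log2 difference of -0.35 in WT and 0.05 in *Mef2c*-het mice. *Ms4a6d* differed by -0.11 (SE 0.064, limma adjusted p = 0.157) on ILMN_1241695 and by -0.01 (SE 0.051, limma adjusted p = 0.869) on ILMN_2602352, and on the first probe its order was WT at P30, WT at P1, *Mef2c*-het at P30 and *Mef2c*-het at P1, each overlapping with the next.

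**Figure D4:**
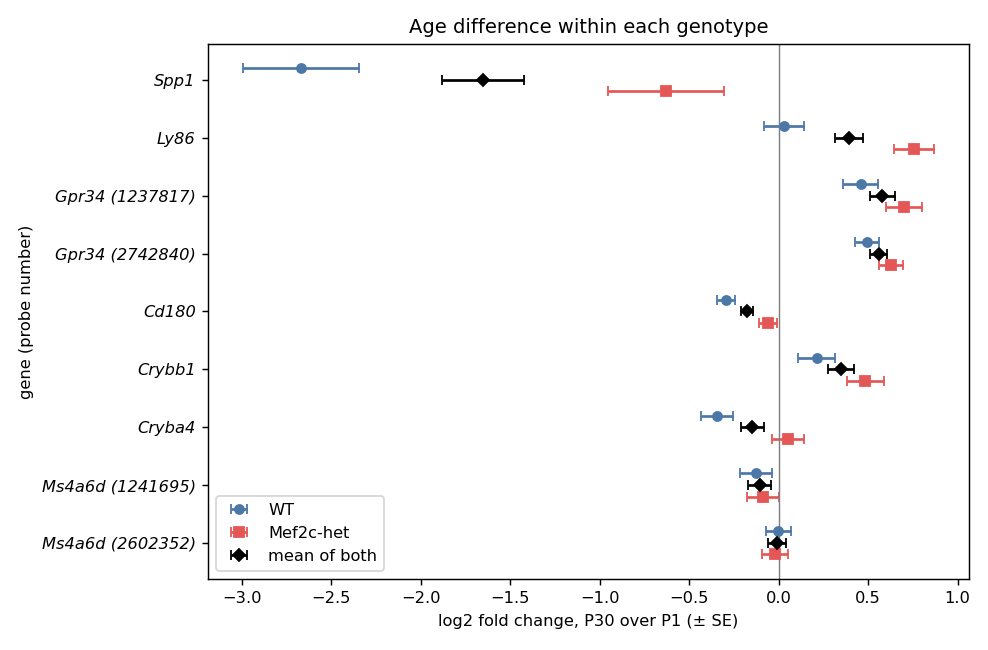
The x axis is the log2 fold change of P30 over P1 with its SE, and each row is 1 member probe, with circles for WT, squares for *Mef2c*-het mice (4 arrays per age each) and diamonds for the mean of both. For *Spp1* the WT value is -2.67 and the *Mef2c*-het value -0.63, for *Ly86* 0.03 and 0.76, and for *Gpr34* both genotypes lie to the right of 0.

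The markers of adult microglia rose with age, as *Gpr34* did. Of 21 tested genes of the microglia list 18 were called higher and 0 lower (1 of 21 read lower, 0 at an unadjusted p under 0.05 by limma), with a median of 0.76, led by *Selplg*, a surface ligand of selectins, at 2.57 (limma adjusted p = 1.47e-16). On the early microglia list 3 of 18 were called higher and 10 lower, with a median of -0.24. Over all probes 31.8% were called higher and 36.7% lower, with a median of -0.03. Within the early microglia list the largest fall was that of the replication gene *Mcm5*, -2.19 (limma adjusted p = 1.63e-14). The largest rise in that list was that of the lipid carrier *Apoe*, 1.54 (limma adjusted p = 4.01e-10). *Mcm5* and *Apoe* are also active in other brain cells.

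Of the genes that act with the members or are related to them, 0 were called for genotype at P1 or P30 by limma. Their calls with age are given below and have to be read beside those of the whole array. Of the 14777 probes tested, 31.8% were called higher and 36.7% lower, and no list was tested against that share. At an unadjusted p under 0.05 there was 1 at each age (*Cd44* at P1 and *P2ry1* at P30). At P1 the tested *Cd44* probe was above background on 4 *Mef2c*-het arrays but on 1 WT array only. It thus entered that test through the *Mef2c*-het group, where it is high, so its P1 value supports nothing. For the receptor side of *Spp1*, 6 of 11 listed integrin and CD44 genes could be tested with age, of which 3 were called higher and 2 lower. The integrin chain *Itgb5* rose by 0.50 (limma adjusted p = 0.00357), *Itgav*, which pairs with it, by 0.18 (limma adjusted p = 0.00472), and *Cd44* by 0.13 on the single probe of its 6 that was above background (limma adjusted p = 0.00589). *Itga5*, 1 of the 2 called lower (limma adjusted p = 3.33e-06), was above background on no P30 array. It entered the fit through its P1 arrays alone, so that its call was fixed by the filter and supports nothing. At P1 *Itgb5* read -0.31 and *Cd44* 0.17, and at P30 0.20 and -0.03. The listed relatives of *Spp1*, the secreted phosphoproteins of bone and tooth (4 genes), were too dim to test.

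For the toll-like receptor genes around *Ly86* and *Cd180*, 10 of 20 could be tested with age, and 4 were called higher and 1 lower. *Unc93b1*, which carries intracellular toll-like receptors to their compartment, rose by 0.51 (limma adjusted p = 7.56e-05), and *Cd14*, a co-receptor for lipopolysaccharide, by 0.43 (limma adjusted p = 5.94e-07). *Tlr2* fell by 0.17 (limma adjusted p = 0.00324). *Ly96*, which encodes MD-2, the relative of MD-1 that binds TLR4, read -0.07 with age (limma adjusted p = 0.522). Its genotype difference was 0.10 at P1 and 0.11 at P30. *Ly86* was selected on its P1 value and *Ly96* was not, so their sizes are not compared. *Tlr4* itself was above background on no array.

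Around *Gpr34*, 7 of 14 listed P2Y-like receptors and lysophosphatidylserine enzymes could be tested with age, and 4 were called higher and 1 lower. *Abhd12*, a lipase that breaks down lysophosphatidylserine, rose by 1.22 (limma adjusted p = 1.39e-11), and the ADP receptor gene *P2ry1* fell by 0.29 (limma adjusted p = 3.95e-05). Their genotype differences at P1 were -0.02 and -0.02. Of 6 other crystallin genes tested with age, 3 were called higher and 1 lower. *Cryab*, a small heat shock protein of astrocytes and oligodendrocytes, rose by 2.42 (limma adjusted p = 4.05e-15). The 1 called lower was *Cryba1* (limma adjusted p = 0.0105), which was above background on no P30 array. It too entered the fit through P1 arrays alone, so that its call was fixed by the filter and supports nothing. At P1 the 5 other crystallin genes tested read between -0.09 and 0.09. *Crybb1* and *Cryba4* were selected on the P1 contrast and these genes were not, so sizes are not compared. Of 15 other MS4A genes only *Ms4a7* could be tested, and it read -0.01 at P1, 0.05 at P30 and -0.04 with age.

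Within groups the members did not vary as a single block. Taking each array's deviation from its group mean over the 16 arrays, with all values sharing the arrays and their background, the *Gpr34* probes followed each other (Pearson's r = 0.71) and *Ly86* followed *Gpr34* ILMN_2742840 (r = 0.78). *Crybb1* and *Cryba4* followed each other (r = 0.60). *Spp1* had an r of 0.49 with *Ly86* but of -0.41 and -0.40 with *Crybb1* and *Cryba4*, and of 0.06 with *Cd180*. WT P1 replicate 8 was the lowest array of its group for *Spp1* and the highest for both crystallin genes. How far the negative values rest on that array was not tested. The *Ms4a6d* probes had an r of 0.15 with each other, and the dim one had 0.65 with *Ly86*. With the mean of the 21 microglia genes, r was 0.89 for *Ly86*, 0.75 for *Gpr34* ILMN_2742840 and 0.44 for ILMN_1237817, 0.63 for *Ms4a6d* ILMN_2602352, 0.50 for *Cd180*, 0.42 for *Spp1* and 0.42 for *Ms4a6d* ILMN_1241695, 0.16 for *Crybb1* and 0.11 for *Cryba4*. *Ly86* thus had the highest r with the microglia markers, and the crystallin genes had the lowest. The deviations hold differences between the array clusters as well as between mice, and the part of the clusters was not tested.

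**Figure D5:**
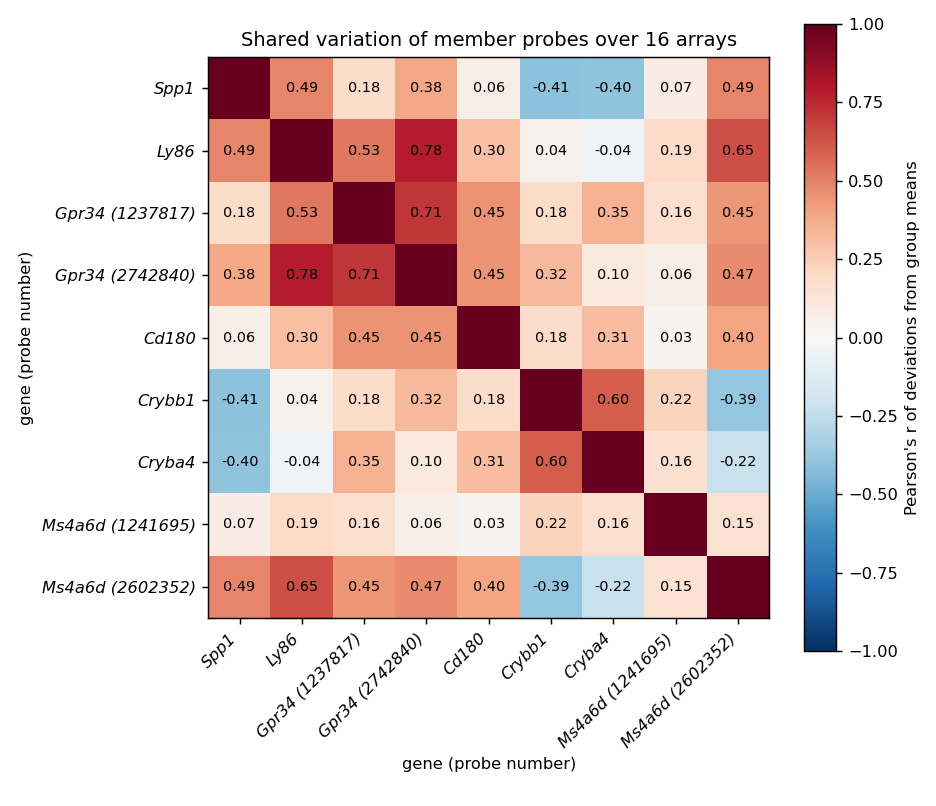
Each cell is Pearson's r between 2 member probes over the deviations of 16 arrays from the means of their 4 groups, with the probes on both axes and r as colour and number. *Gpr34* and *Ly86* form the reddest block (0.53 to 0.78), *Crybb1* and *Cryba4* pair at 0.60, and *Spp1* is blue against both crystallin genes.

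The genes most like each member by the same measure, over 16 arrays and all 14777 probes, were as follows. For *Spp1* they were *Pfn1*, an actin-binding protein (r = 0.96), *Cd93*, a surface protein of endothelial and myeloid cells (r = 0.90), and *Cfap69* (r = 0.90). For *Ly86* they were *Dnaaf2*, *Cd151* and *Sephs2* (r = 0.87, 0.87 and 0.86). For *Gpr34* they were *Cpped1*, *Dhrs1* and *Sephs2* (r = 0.87, 0.83 and 0.82). *Sephs2*, a selenophosphate synthetase, was among the 3 for both *Ly86* and *Gpr34*. *Crybb1* was closest to *Arl11*, *Tle2* and *Rnf135* (r = 0.89, 0.87 and 0.85) and *Cryba4* to *Tmco3*, *Amz2* and *Upp1* (r = 0.87, 0.86 and 0.86). Among the genes closest to *Cd180* were *Zscan20* and *Ccdc66* (r = 0.85 and 0.78), and *Ms4a6d* was closest to *Lrig1*, *Tgfbr2* and *Sat1* (r = 0.84, 0.80 and 0.79). With so few arrays and so many probes, values of this size are a description of these arrays.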

How the data were processed

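The authors deposited the mean bead intensity of every probe on every array, not normalized between arrays, with its detection p-value, the bead standard error as an intensity, and a count of beads. Subtraction of a local background is not given in the sources used here. The submitters' processing notes name lumi and limma, and per the methods the authors took log2 values and quantile normalized them.

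The same steps were applied here to 16 arrays with R 4.3.3 and limma 3.58.1 (lmFit, eBayes, two-sided, Benjamini-Hochberg over all probes tested, threshold 0.05). No constant was added, the lowest intensity being 92.8. A probe was tested where at least 4 arrays of the fit had a detection p under 0.05. The 8 arrays of an age were fitted together for genotype and all 16 for age. Exact permutation p-values (two-sided, 70 assignments of the arrays) were added for the member probes at P30 and for *Mef2c* at both ages. Probes were named through the RefSeq table of GRCm38.p6 (25376 matched), and a gene with several probes stood in a list by its brightest tested probe. Clusters of arrays come from average linkage on 1 minus Pearson's r. Fits were tested on simulated data.

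Named are all member and *Mef2c* probes, *Cd14*, *Ly96*, *Tlr4*, *Cd44*, *Itgav* and *Gpr82*, the largest called rise and fall with age in each pathway list, and the 3 genes most like each member, except for items not reported here. Other genes were named after their values were seen, and the values within clusters at P30 and the correlations with the microglia list were added then too. The members and the gene lists were chosen with earlier results of these data known. The labels do not tie mice to litters, and p-values measure the spread between these mice. The number of arrays limits the precision. Alternatives were normexp (offset 16), median scaling, cyclic loess, an unfiltered table, a stricter detection p of 0.01, trend and robust variances, sex, the array cluster or the replicate number as a term, a joint fit of both ages, and the omission of single arrays. The remaining lists, of lymphocytes, erythroid cells, neurons, hippocampal neurons, astrocytes, oligodendrocytes, endothelium, meninges and choroid plexus, had 0 genes called for genotype at either age by limma, and 0 at an unadjusted p under 0.05.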

Additional observations from a re-analysis of the deposited data

Results flagged for a closer look

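Among 36 sets of 4 arrays (9 probes in 4 groups), 2 held an array that stood apart from the rest of its group, and about 1 in 20 sets, or 1.8, would do so by chance. For *Ly86* (ILMN_2671923) WT P1 replicate 4 read 9.67 against at most 9.25 on the others, a gap of 0.871 of the range of its group, and without it the log2 fold change at P1 was -0.66. For *Ms4a6d* (ILMN_1241695) WT P30 replicate 7 read 7.64 against at least 7.80 on the others, a gap of 0.953 of the range. It was the WT array farthest from the *Mef2c*-het arrays, and without it the log2 fold change at P30 was 0.34.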

How the results depend on the processing

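At P30, 0 member probes were called under all 9 alternatives and on leaving out each of the 8 arrays in turn (0 to 0). With age 6 to 7 probes were called under 9 alternatives and 6 to 7 on leaving out each array. The median P1 log2 fold change of the members was -0.36, between -0.86 (normexp) and -0.32 under 10 alternatives, and between -0.44 and -0.34 on leaving out each array. The choice that mattered most for size was normexp, since subtracting background widens the log2 differences of dim probes. At P30 the sign turned for *Ly86*, to 0.0044 (median scaling) and 0.0112 (replicate block), and for *Cryba4*, to 0.0108 (median scaling), 0.0105 (cyclic loess), 0.0158 (array cluster block) and 0.0289 (replicate block). With age *Ms4a6d* ILMN_2602352 turned to 0.0675 (sex as covariate) and 0.0004 (replicate block). Leaving out 1 array, the P30 value ran from -0.0945 to 0.0508 for *Ly86* and from -0.0538 to 0.0394 for *Cryba4*, and the age value of *Ms4a6d* ILMN_2602352 from -0.0348 to 0.0153. *Cryba4* passed with age under median scaling (limma adjusted p = 0.0111), under a detection p of 0.01 (limma adjusted p = 0.0499) and without any 1 of WT P1 replicates 4 or 5, *Mef2c*-het P1 replicate 2, WT P30 replicate 7 or *Mef2c*-het P30 replicate 7 (limma adjusted p from 0.0234 to 0.034); the cause was not tested. The probe called at P30 over the whole array was lost under normexp, median scaling, cyclic loess and the replicate block, and without any 1 of 7 of the 8 arrays. With age the crystallin list had 2 genes called in place of 4 under a detection p of 0.01, where 3 were tested, and the oligodendrocyte list 14 probes in place of 8 genes with every probe counted. The labels do not say that the replicate numbers pair the mice, and they were not used as pairs. Same-numbered arrays had an r of deviations of 0.09, 0.402 and 0.828 at P1 and 0.185, -0.532 and 0.708 at P30. WT replicate 6 and *Mef2c*-het replicate 7 at P30, both of the smaller cluster, had 0.729. These values thus follow the array clusters too and cannot settle what the numbers mean. With the replicate block 0 member probes were called at P30 and 6 with age, and the median at P1 was -0.35. Signal over background limits *Cd180*, *Crybb1* at P1 and *Ms4a6d* ILMN_2602352 most.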
